A study of Mus musculus with 6 samples.

Results

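The maternal-effect genes described here are 10 genes whose products the mouse egg stores for the embryo: Nlrp5, Ooep, Khdc3, Padi6, Tle6, Nlrp2, Nlrp14, Nlrp4f, Npm2 and Zar1. They were found by gene name among the probes of the array, with Khdc3 under its older name 2410004A20Rik, and each had 1 probe with 1 spot, so that 10 of 31693 named genes were followed. RNA from 3 SeBP1 knockout and 3 wild-type ovaries of C57BL/6J females aged 20 weeks was hybridised with 1 dye to an Agilent whole-genome array, 1 array per ovary sample, to ask what deletion of selenium-binding protein 1 (gene symbol Selenbp1) does to ovarian expression. The labels give the knockout with no allele or deleted exons, and the wild type with no statement on littermates. Nothing in them says that each array came from its own animal, so it is not known whether the spread behind the p-values is one between animals.

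Oocytes grow in the follicle while they stockpile RNA and protein, because the genome of the new embryo is silent for the first cleavage. NLRP5 (also called MATER), OOEP, TLE6 and KHDC3 form the subcortical maternal complex under the egg's surface, PADI6 is needed for the cytoplasmic lattices that hold stored material, and embryos of mouse females that lack members of this set arrest early. NPM2 is a histone chaperone of the egg nucleus, and ZAR1 is an RNA-binding protein that takes part in storage of maternal messages. In the ovary these genes are known as oocyte genes, so that a whole-ovary level depends on how much oocyte RNA is in the sample.

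Signal is given on the log2 scale with the 75th percentile of the array subtracted, so that 0 is the level of that percentile and a step of 1 is a doubling. Spots well above background made up 63.9% to 69.3% of each knockout array and 61.6% to 67.8% of each wild-type array, and no spot was saturated. The arrays lay on 2 slides: slide 2 held the 3 knockouts and wild type replicate 3, and slide 1 held wild type replicates 1 and 2. Selenbp1 itself had a log2 signal of -0.11, 0.02 and -0.37 in knockout replicates 1 to 3, against 2.68, 2.53 and 2.59 in wild type replicates 1 to 3, a log2 difference of -2.75 ± 0.13 (SE; limma, adjusted p = 0.0104). The level runs with the labels, although where the probe lies relative to the deleted part is not stated in them. All 10 maternal-effect genes were well above background on all 6 arrays, and all 10 passed the filter on dim probes.

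None of the 10 genes passed the test between genotypes, and in each of them the knockout and wild-type arrays overlapped. Over all 24415 probes tested, 0.0041% were called at an adjusted p under 0.05 (limma, Benjamini-Hochberg), which is 1 probe, that of Selenbp1. Groups without overlap made up 8.58% of all probes tested (3.94% with the knockouts higher and 4.64% with them lower) and 0 of the 10 genes. At an unadjusted p under 0.05 there were 0 of the 10 genes, where 3.95% of all probes tested passed. The difference between means was below 0 in all 10 genes, with a median of -0.22, where 54.3% of all probes tested lay below 0 and their median was -0.017. Pearson's r between pairs of the 10 genes over the arrays ran from 0.89 to 0.998, so their shared sign does not amount to 10 separate observations.

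The size of the median difference over the 10 genes rested on which arrays were set against each other, and its sign turned in the fit blocked on slide. Leaving out any single array kept it below 0, and without knockout replicate 1 it was -0.16. Without knockout replicate 2 the median over the 10 genes was -0.45, without knockout replicate 3 it was -0.037, and it was -0.12, -0.092 and -0.44 when wild type replicate 1, 2 or 3 was left out. In a fit blocked on slide, where the knockouts meet only wild type replicate 3, all 10 genes turned to a difference above 0, with a median of 0.28 (0 genes called). With array weights the median was -0.57. That fit weighted wild type replicate 2 at 5.30, against 0.35 for wild type replicate 3 and 0.44 for knockout replicate 2.

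Nlrp5 encodes the scaffold of the subcortical maternal complex. Its log2 signal was 1.70, 2.31 and 1.55 in knockout replicates 1 to 3, against 2.41, 2.39 and 1.55 in wild type replicates 1 to 3. Knockout replicate 2 stood with wild type replicates 1 and 2, and the lowest wild-type array stood with the other knockouts. The means were 1.85 ± 0.40 in the knockout and 2.12 ± 0.49 in wild type (SD, n = 3 each), and the log2 difference was -0.27 ± 0.30 (SE; limma, adjusted p = 1.00). Its 95% interval, -1.0 to 0.47, holds changes of both signs. The probe lies on chromosome 7 at 24226882 to 24226940 in build mm9 (exon and UTR positions of the probes are not analysed here).

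Ooep encodes a small KH-domain-like protein of the complex. Its probe, on chromosome 9 at 78224804 to 78224863, was dim, at 47.4 to 59.6 intensity units in the knockout and 35.3 to 79.2 in wild type. The log2 signal was -4.98, -4.65 and -5.13 in the knockouts, against -4.47, -4.68 and -5.21 in the wild types. Wild type replicate 3 was the lowest of all 6 arrays and wild type replicate 1 the highest, so that the wild-type arrays enclosed the knockouts. The log2 difference was -0.13 ± 0.23 (SE, adjusted p = 1.00), and 0.027 without wild type replicate 1.

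Khdc3, also called FILIA, encodes the other KH-domain protein of the complex. Its log2 signal was 1.01, 1.65 and 0.84 in the knockouts, against 1.57, 1.64 and 0.94 in the wild types. Here the highest of all 6 arrays was a knockout, replicate 2. The means were 1.17 ± 0.43 in the knockout and 1.38 ± 0.39 in wild type (SD, n = 3 each), a log2 difference of -0.21 ± 0.28 (SE). The probe lies on chromosome 9 at 72952157 to 72952216.

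Tle6 encodes a relative of Groucho corepressors that is part of the same complex. Its log2 signal was 3.78, 4.22 and 3.57 in the knockouts, against 4.20, 4.29 and 3.76 in the wild types. The SD was 0.33 in the knockout and 0.28 in wild type (n = 3 each), and pooled over both genotypes it was the smallest of the 10 genes, at 0.31. The log2 difference was -0.23 ± 0.22 (SE, 95% interval -0.75 to 0.30). The Tle6 probe is on chromosome 10 at 81053702 to 81053761.

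Padi6 encodes a peptidylarginine deiminase of the egg that is needed for the lattices. Its log2 signal was 3.56, 4.09 and 3.13 in the knockouts, against 4.12, 4.17 and 3.27 in the wild types. It had the widest range of the 10 genes over the 6 arrays, 1.03 on the log2 scale or 2.05-fold, between wild type replicate 2 and knockout replicate 3. That range lies across arrays of both genotypes, and the genotype difference was -0.26 ± 0.33 (SE, 95% interval -1.06 to 0.54). The Padi6 probe is on chromosome 4 at 140283271 to 140283330.

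**Figure D1:**
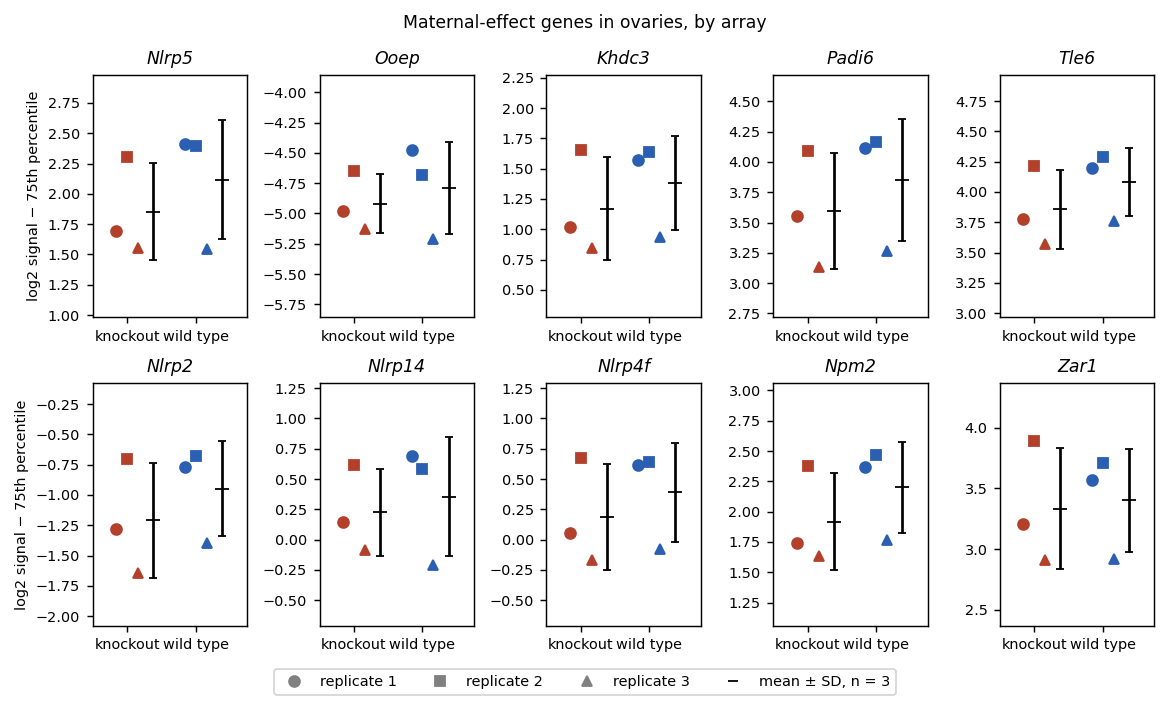
Log2 signal minus the array's 75th percentile (vertical axes, each spanning 2 log2 units) of the 10 genes in knockout (left) and wild-type (right) ovaries. Points are arrays, with replicate number by shape, and bars show mean ± SD (n = 3). In every gene knockout replicate 2 lies with wild type replicates 1 and 2, and wild type replicate 3 lies with knockout replicates 1 and 3.

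The NLRP proteins carry a nucleotide-binding domain and leucine-rich repeats, and in the mouse many genes of this family are used in the oocyte and not in immunity. Nlrp2, whose loss in mouse mothers impairs early embryos, had a log2 signal of -1.28, -0.70 and -1.64 in the knockouts, against -0.77, -0.68 and -1.39 in the wild types. The log2 difference was -0.26 ± 0.29 (SE). Nlrp14, which early mouse embryos also need from the mother, had 0.15, 0.61 and -0.09 in the knockouts, against 0.69, 0.59 and -0.21 in the wild types. Its lowest array was wild type replicate 3, below all 3 knockouts. The log2 difference of Nlrp14 was -0.13 ± 0.29 (SE), and 0.025 without knockout replicate 3 and 0.036 without wild type replicate 1. The probes lie on chromosome 7, at 5250218 to 5250277 for Nlrp2 and at 114334673 to 114334732 for Nlrp14.

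Nlrp4f, a member of the mouse Nlrp4 branch that has been found with the subcortical complex, had a log2 signal of 0.06, 0.67 and -0.17 in the knockouts, against 0.61, 0.64 and -0.08 in the wild types. As in Khdc3, knockout replicate 2 was the highest of the 6 arrays. The log2 difference was -0.20 ± 0.29 (SE, 95% interval -0.90 to 0.49). The Nlrp4f probe is on chromosome 13 at 65278444 to 65278503.

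The Nlrp4 genes are close copies, and their probes were compared for unbroken runs of shared bases. The longest run of bases that the 60-base Nlrp4f probe shares with any other probe of a different gene is 16, once with Nlrp4b and once with Nlrp4c. The probes are printed with the run shared by each pair in capitals.
Nlrp4f, run shared with Nlrp4b: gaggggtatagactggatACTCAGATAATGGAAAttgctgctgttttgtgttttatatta
Nlrp4b: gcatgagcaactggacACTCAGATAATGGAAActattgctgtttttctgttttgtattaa
Nlrp4f, run shared with Nlrp4c: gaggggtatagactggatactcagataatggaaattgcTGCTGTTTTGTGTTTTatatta
Nlrp4c: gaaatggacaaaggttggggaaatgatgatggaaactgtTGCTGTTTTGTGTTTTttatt
A run ends at the first mismatch, and the Nlrp4f and Nlrp4b probes are also alike on both sides of theirs. The probes were compared with other probes and not with the transcripts of the other genes. Run length therefore does not show how far the array keeps the copies apart, and cross-hybridisation between Nlrp4f and its copies was not tested. The other 9 maternal-effect probes shared at most 16 bases in a row with a probe of any other gene, and those of Tle6, Nlrp14, Npm2 and Zar1 shared no run of 14 or more.

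The other Nlrp4 and Nlrp9 genes, the rest of the oocyte branch, varied over the arrays in the same order. Of 9 such genes with a probe, 7 passed the filter, 0 were called, and in 7 of 7 knockout replicate 2 and wild type replicates 1 and 2 lay above the other 3 arrays. Nlrp4b had a log2 signal of -0.80, 0.00044 and -1.15 in the knockouts, against -0.22, -0.07 and -0.95 in the wild types. Nlrp9c had -1.97, -1.34 and -2.02 in the knockouts, against -1.47, -1.44 and -2.22 in the wild types. The log2 differences were -0.24 for Nlrp4b, -0.094 for Nlrp4a, -0.18 for Nlrp9a, -0.10 for Nlrp9b, -0.064 for Nlrp9c, 0.0011 for Nlrp4e and 0.21 for Nlrp4c, whose probe was well above background on 3 knockout and 2 wild-type arrays. This Nlrp4c probe thus passed the filter only through the knockouts, where its mean was higher. The filter itself favours a higher knockout level there, and the difference is given with no test. Among second, dimmer probes, that of Nlrp9b was at 0.55 and that of Nlrp4c at -0.93, and neither had that array order. The second Nlrp9a probe was at 0.11, of the opposite sign to the first, that of Nlrp4a at -0.14 and that of Nlrp4e at 0.050. Those of Nlrp9a and Nlrp4e were well above background on 3 knockout and 2 wild-type arrays, so the filter favours a higher knockout level there too. The second Nlrp4c probe had 19, 29.8 and 18.4 intensity units in the knockouts, against 45, 33.2 and 43.7 in the wild types, and was well above background on 1 knockout and 3 wild-type arrays. It passed the filter only through the wild types, where it was higher, so the filter itself favours a lower knockout level there and the difference is given with no test. Nlrp4d was dim on all 6 arrays, none of them well above background, and Nlrp4g passed that limit on the array of knockout replicate 2 alone, at 61.8 intensity units.

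Npm2 encodes the egg's nucleoplasmin, which organises chromatin and nucleoli. Its log2 signal was 1.74, 2.38 and 1.63 in the knockouts, against 2.37, 2.47 and 1.77 in the wild types. It had the largest genotype difference of the 10 genes, -0.28 with a standard error of 0.27 (95% interval -0.93 to 0.36), which is smaller than the within-genotype SD of 0.40 in the knockout and 0.38 in wild type (n = 3 each). The probe lies on chromosome 14 at 71047255 to 71047314. Of the histone-handling genes listed with it, H1f8, the linker histone of oocytes (named after its values were seen), had 3.23, 4.14 and 3.08 in the knockouts, against 3.88, 3.94 and 3.10 in the wild types. Nasp, a histone chaperone of dividing cells, had 1.77, 2.26 and 1.84 in the knockouts, against 1.69, 2.11 and 1.72 in the wild types. Npm1, the nucleophosmin of all cells, differed by -0.092. Of the 7 measured genes in the list, 0 were called.

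Zar1 had a log2 signal of 3.20, 3.89 and 2.91 in the knockouts, against 3.57, 3.71 and 2.92 in the wild types. Knockout replicate 2 was the highest of the 6 arrays and knockout replicate 3 the lowest, so that the knockouts enclosed the wild types. The means were 3.33 ± 0.50 in the knockout and 3.40 ± 0.42 in wild type (SD, n = 3 each), the smallest difference of the 10 genes, -0.067 with a standard error of 0.31. That difference was 0.15 without knockout replicate 3 and 0.018 or 0.088 when wild type replicate 1 or 2 was left out. The Zar1 probe is on chromosome 5 at 72968441 to 72968500. It is shown because Zar1 is the gene of the 10 whose genotypes did not overlap relative to other oocyte genes, as described later.
Zar1 probe: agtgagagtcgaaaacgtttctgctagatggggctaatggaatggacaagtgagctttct

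Genes that handle stored RNA beside Zar1 also held no call. Of 12 such genes 0 were called, and the smallest unadjusted p belonged to Lsm14b, an RNA granule protein, with a log2 difference of -0.19 (standard error 0.16). Next was Cpeb1, which controls the poly(A) tails of stored messages, at -0.28 (standard error 0.24). Of 25 other maternal-effect genes 24 were measured and 0 called. Tet3, the dioxygenase that oxidises methylated cytosine in the zygote, differed by 0.52 ± 0.25 (SE), and Trim28, a corepressor that protects imprints, by 0.21 ± 0.11 (SE; limma, adjusted p = 1.00 for both). Tet3 had -3.27, -3.10 and -3.14 in the knockouts, against -4.01, -3.94 and -3.12 in the wild types. Wild type replicate 3, on the slide of the knockouts, thus lay among them, and the lower 2 wild types were on the other slide. The knockout arrays of Trim28 all lay above the wild types, at 3.32, 3.44 and 3.31 in the knockouts, against 3.09, 3.28 and 3.08 in the wild types. It was the 1 gene of that list without overlap, and 3.94% of all probes tested had the knockouts higher without overlap. Of the 8 listed genes of the subcortical complex, 7 of them among the 10, 0 were called. Zbed3, which binds the subcortical complex, had -1.20, -0.67 and -1.35 in the knockouts, against -0.63, -0.73 and -1.02 in the wild types, a difference of -0.28 ± 0.21 (SE).

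**Figure D2:**
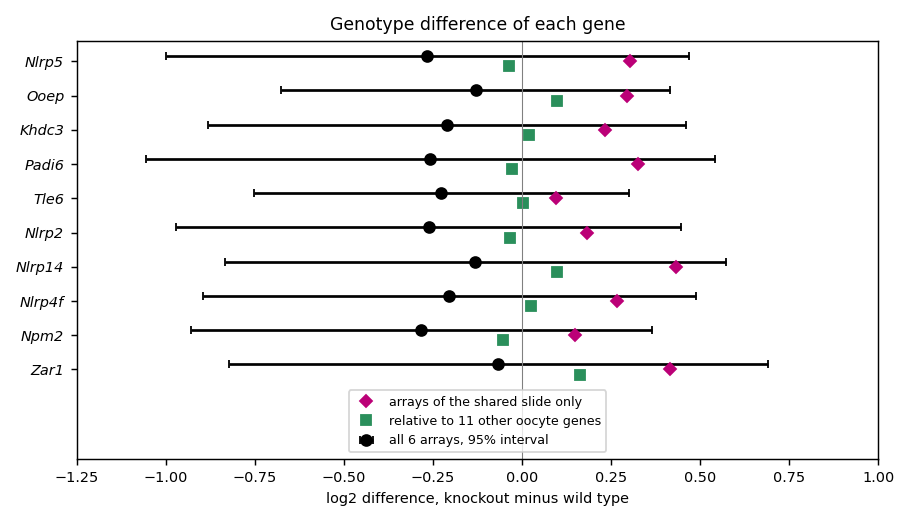
Log2 difference, knockout minus wild type, of each of the 10 genes. Circles with bars give the limma estimate over 6 arrays and its 95% interval, diamonds the difference on the slide that held both genotypes, and squares the difference relative to 11 other oocyte genes. All 10 intervals include 0, all 10 diamonds lie above 0, and the squares lie between -0.053 and 0.16.

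What the 10 genes shared was their order over the arrays. In 10 of 10, knockout replicate 2 and wild type replicates 1 and 2 lay above knockout replicates 1 and 3 and wild type replicate 3. That order was noted in these data, so it is given as a description, and 15.1% of all probes tested had it. The mean deviation of the 10 genes from their own means was -0.21, 0.34 and -0.44 in knockout replicates 1 to 3, against 0.33, 0.35 and -0.37 in wild type replicates 1 to 3. Across the 6 arrays, Pearson's r between pairs of the 10 genes ran from 0.89 to 0.998 with a median of 0.97 over 45 pairs. These values share the same 6 RNA samples and their scaling.

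The spread inside a genotype was wider than that of most probes. The pooled within-genotype SD ran from 0.31 (Tle6) to 0.49 (Padi6), and exceeded that of 73.0% to 90.3% of all probes tested, whose median was 0.20. The highest array of a gene lay 1.64-fold (Tle6) to 2.05-fold (Padi6) above its lowest. Knockout replicate 3 was the lowest array in 7 genes and wild type replicate 3 in 3. The highest array was wild type replicate 2 in 4 genes, wild type replicate 1 in 3 and knockout replicate 2 in 3.

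Other oocyte genes moved with them. A list of 11 measured oocyte genes that holds none of the 10 (Zp1, Zp2, Zp3, Gdf9, Bmp15, Figla, Nobox, Oosp1, Ddx4, Dazl and Lhx8) had a median deviation of -0.23, 0.40 and -0.49 in knockout replicates 1 to 3, against 0.35, 0.40 and -0.43 in wild type replicates 1 to 3. All 11 had the array order given above, and 0 were called. Their genotype differences were below 0 in all 11 too, with a median of -0.23. Figla, a transcription factor that oocytes need to build follicles, differed by -0.32 ± 0.30 (SE), and Ddx4, an RNA helicase of germ cells, by -0.25 with a standard error of 0.25. In RNA of whole ovaries, fewer or smaller oocytes in a sample and less RNA of these genes per oocyte cannot be told apart.

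Among markers of other ovarian cells that order was seen in 6 of 33 genes, or 18.2%, close to the 15.1% of all probes tested. By list it was seen in 1 of 12 granulosa genes, 2 of 6 theca and interstitial genes, 0 of 8 corpus luteum genes and 3 of 8 genes of oviduct and surface epithelium. The corpus luteum list had a median deviation of 0.75, -2.23 and 0.16 in knockout replicates 1 to 3, against 0.093, 0.055 and 0.89 in wild type replicates 1 to 3. Knockout replicate 2, where the oocyte genes were near the top, was the lowest array in 6 of the 8 luteal genes, but not in Akr1c18 or Parm1. Wild type replicate 3, where the oocyte genes were low, was the highest array in 5 of the 8, and the lowest in Akr1c18, a progesterone-degrading enzyme gene. The granulosa list was at -0.32, 0.027 and 0.39 in the knockouts, against 0.20, 0.090 and -0.51 in the wild types, and in knockout replicate 3 it was at its highest while the oocyte genes were at their lowest. Knockout replicate 3 was the highest array in 6 of the 12 granulosa genes. The lowest array was wild type replicate 3 in 9 of the 12 and knockout replicate 1 in 3, and the oocyte genes were low on both of those arrays too. The part of these cell types in the levels of the 10 genes was not tested.

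**Figure D3:**
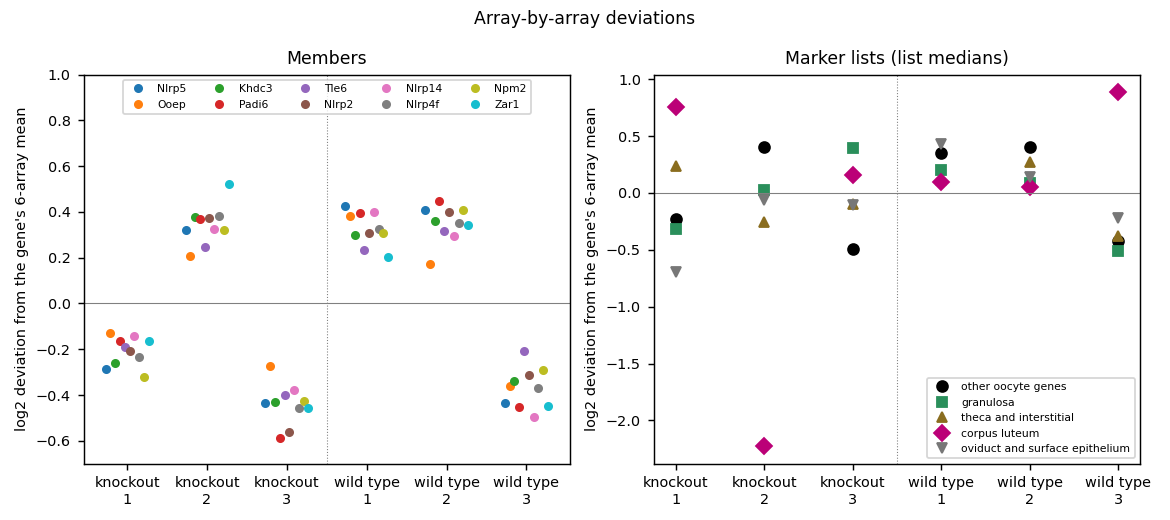
Log2 deviation of each gene from its own mean over the 6 arrays, by array, for the 10 maternal-effect genes (left, 1 point per gene) and as medians of 5 marker lists (right). The 10 genes and the other oocyte genes are above 0 in knockout replicate 2 and wild type replicates 1 and 2 and below 0 on the other arrays, and the corpus luteum list reaches -2.23 in knockout replicate 2.

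To compare the 10 genes at a matched oocyte level, their signal was also taken relative to the mean of the 11 oocyte genes on the same array. A constant scaling of an array cancels in this measure. The pooled within-genotype SD of the 10 genes was then 0.033 (Nlrp4f) to 0.17 (Ooep), with a median of 0.074 against 0.43 before, whereas the median over all probes tested went the other way, to 0.47 against 0.20 before. Nlrp4f, for example, was 0.58, 0.59 and 0.59 in the knockouts, against 0.54, 0.53 and 0.62 in the wild types. Nlrp5 was 2.22, 2.22 and 2.31 in the knockouts, against 2.33, 2.29 and 2.24 in the wild types, a difference of -0.037. Over the 10 genes this relative difference had a median of 0.010, with 4 genes below 0 and 6 above.

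Zar1 was the gene of the 10 whose genotypes did not overlap on this relative scale. It stood at 3.73, 3.81 and 3.67 in the knockouts, against 3.50, 3.60 and 3.61 in the wild types, with means of 3.73 ± 0.07 in the knockout and 3.57 ± 0.07 in wild type (SD, n = 3 each). The difference was 0.16, with all 3 knockouts above all 3 wild types, and the exact permutation test (two-sided, chosen after seeing the data) gave p = 0.1, the smallest that 3 against 3 arrays allow. With limma over all probes on this scale the adjusted p was 0.981. Its standard error for Zar1 was 0.41, drawn from the wide spread of all probes on this scale. That test could therefore hardly call a difference of this size. On this scale 2.94% of all probes tested had groups without overlap, 2.63% with all knockouts above all wild types, and the median difference over all probes tested was shifted upward by 0.23. Those shares come from probes whose spread inside a genotype mostly widened on this scale, while that of the 10 genes narrowed. They are therefore no yardstick for Zar1. With labels that carry no information, a gene reaches the smallest exact permutation p at a rate of 0.1, and 10 genes were looked at. Nlrp14 differed by 0.098 with overlapping groups, at 0.67, 0.53 and 0.67 in the knockouts against 0.61, 0.48 and 0.49 in the wild types (exact permutation p = 0.2).

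**Figure D4:**
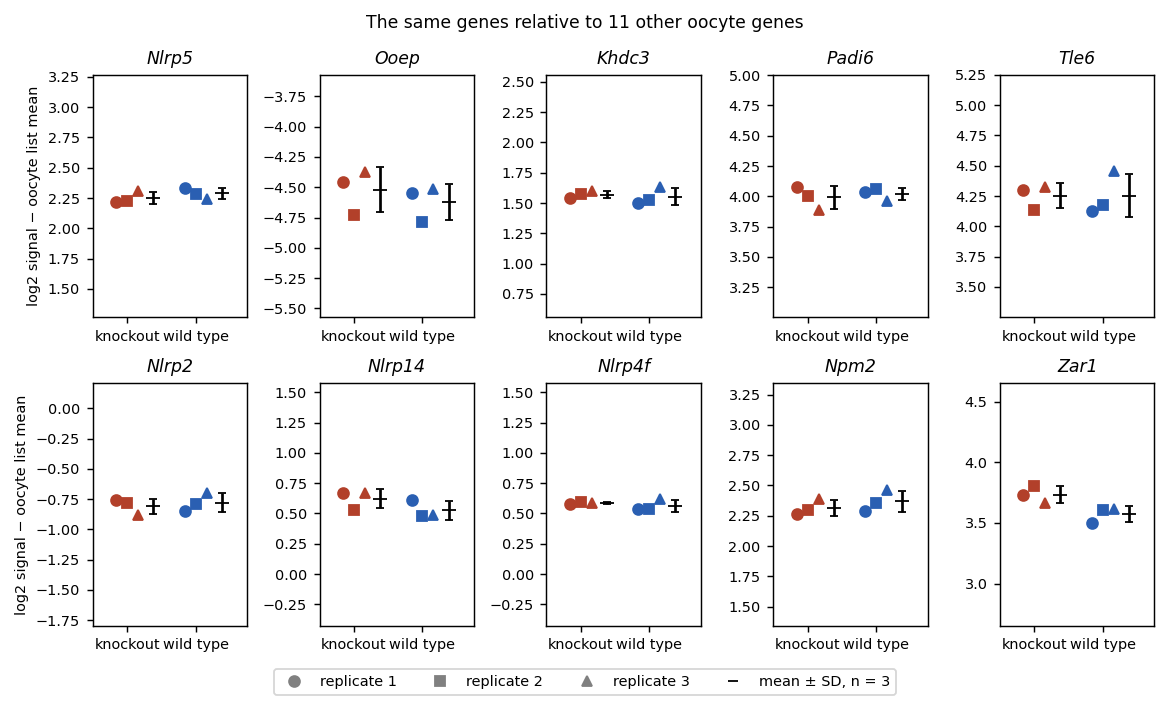
Log2 signal of the 10 genes minus the mean of 11 other oocyte genes on the same array (vertical axes, each spanning 2 log2 units as in the plot of signal by array), in knockout (left) and wild-type (right) ovaries. Points are arrays and bars show mean ± SD (n = 3). The arrays of a gene lie within 0.083 (Nlrp4f) to 0.42 (Ooep) of each other, and only in Zar1 do the genotypes not overlap.

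Outside all lists, the 5 genes whose profile over the 6 arrays was most like the mean profile of the 10 were Zbtb5, Fbxw18, Oas1e, Astl and Ninj2, with Pearson's r of 0.998, 0.997, 0.995, 0.995 and 0.995. They were picked from 7602 probes at or above the 75th percentile on average, and r describes these 6 arrays only. Astl encodes ovastacin, the egg protease that cleaves a zona pellucida protein after fertilisation. It had a log2 signal of 1.64, 2.19 and 1.27 in the knockouts, against 2.17, 2.17 and 1.43 in the wild types. Fbxw18, an F-box protein gene, had 0.27, 0.94 and -0.0043 in the knockouts, against 0.97, 1.05 and 0.12 in the wild types. Zbtb5, a zinc finger gene, had a narrower range, with 0.93, 1.24 and 0.82 in the knockouts against 1.21, 1.22 and 0.86 in the wild types.

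The start regions of the genes were read because the 10 moved together over the arrays. RefSeq windows of 250 bases before a start (build GRCm38.p6) were held for 8 of the 10 genes, 10 windows in all, with none used here for Nlrp14 and Npm2. The E-box CANNTG, the letters read by basic helix-loop-helix factors such as FIGLA, reads the same on both strands and was in 9 of 10 windows, where 66.2% of 32851 windows of that length hold it. TAATTA and TAATTG, letters read by homeobox factors such as NOBOX, were searched on both strands and were in 1 window each, Nlrp5 and Ooep, where 4.8% and 7.2% of all windows hold them. An E-box that begins 90 to 70 bases before the start was in 4 of 10 windows, and in 9.7% of all windows, a stretch picked after the positions were seen. Those 4 windows are printed with each E-box in capitals. A match of letters is not a binding site.
Khdc3, chr9:73102148-73102397, plus strand: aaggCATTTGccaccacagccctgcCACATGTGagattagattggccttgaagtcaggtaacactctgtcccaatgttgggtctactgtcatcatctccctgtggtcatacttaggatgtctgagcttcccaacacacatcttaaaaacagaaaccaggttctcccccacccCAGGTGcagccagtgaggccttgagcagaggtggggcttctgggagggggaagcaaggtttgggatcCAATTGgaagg
Ooep, chr9:78378589-78378838, minus strand: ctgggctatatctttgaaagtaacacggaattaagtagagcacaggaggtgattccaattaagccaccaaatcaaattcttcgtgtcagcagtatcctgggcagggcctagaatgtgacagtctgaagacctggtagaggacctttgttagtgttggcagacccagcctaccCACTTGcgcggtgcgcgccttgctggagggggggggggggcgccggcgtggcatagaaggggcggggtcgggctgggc
Padi6, chr4:140742644-140742893, minus strand: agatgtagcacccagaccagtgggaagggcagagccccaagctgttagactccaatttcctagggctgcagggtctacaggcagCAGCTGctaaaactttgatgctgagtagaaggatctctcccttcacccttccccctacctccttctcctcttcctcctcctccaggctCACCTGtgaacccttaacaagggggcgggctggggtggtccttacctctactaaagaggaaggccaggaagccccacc
Zar1, chr5:72581085-72581334, minus strand: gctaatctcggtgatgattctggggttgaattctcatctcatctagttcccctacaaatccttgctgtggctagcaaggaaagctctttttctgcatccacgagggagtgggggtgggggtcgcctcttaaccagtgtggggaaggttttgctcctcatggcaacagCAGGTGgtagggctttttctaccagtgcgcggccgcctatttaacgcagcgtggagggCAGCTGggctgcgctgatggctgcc
The E-box starts 78 bases before the start in Khdc3, Ooep and Padi6 and 83 bases before it in Zar1, and the Khdc3, Padi6 and Zar1 windows hold further ones.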

How the data were processed

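Total RNA of 3 knockout and 3 wild-type ovary samples was labelled with Cy3 and hybridised singly, per the labels' protocols. The deposited scanner files hold spot intensity from Agilent Feature Extraction 10.7.1.1, background-subtracted and detrended within each array but not normalized between arrays, with probe coordinates on mm9, per the file headers. Intensity is also what the deposited series table gives, with a median of 119.8 in every column; its making is not given in the sources used.

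Outlier spots (192 to 459 of 43020 per array) were left out, and log2 values were taken minus the 75th percentile of the array. A probe was kept if all 3 arrays of a genotype had it well above background: 24415 of 39429. Of the probes, 26412 were named through RefSeq accessions (assembly GRCm38.p6), 3854 by symbol and 735 by older symbol; for 8428 the array file's own name was used. Genotypes were compared with limma 3.58.1 in R 4.3.3 on all 6 arrays and all kept probes, with calls at an adjusted p (Benjamini-Hochberg) under 0.05, tested on simulated data first. Plots used matplotlib 3.10.9. For a gene with several probes the brightest stood in lists. From each list of oocyte, maternal-effect or NLR genes the 2 of smallest p were named, with every Nlrp4 and Nlrp9 gene; the lists of other ovarian cells were given as medians and counts, and Akr1c18 and Parm1 were named after their values were seen. The members and lists were chosen with earlier results of these data known. The number of arrays limits precision.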

Additional observations from a re-analysis of the deposited data

How the results depend on the processing

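No maternal-effect gene was called under any of the 20 alternatives, and the smallest adjusted p of any of the 10 was 0.262, for Npm2 with array weights. The direction depended on the setting: of 200 differences recomputed, 33 turned their sign. These counts do not measure stability. Several settings, such as the filters, the replicate block and the mean of a gene's probes, repeat the main differences exactly. The slide block and the shared slide alone give the same differences, so their turns are counted in both. With slide as a block, and equally on the shared slide alone, the differences were 0.30 (Nlrp5), 0.29 (Ooep), 0.23 (Khdc3), 0.33 (Padi6), 0.096 (Tle6), 0.18 (Nlrp2), 0.43 (Nlrp14), 0.27 (Nlrp4f), 0.15 (Npm2) and 0.41 (Zar1), and their median was 0.28. Under a random slide block Zar1 was at 0.039. Scaled to the 11 oocyte genes, the median was 0.010, with Ooep at 0.099, Khdc3 at 0.018, Tle6 at 0.0027, Nlrp14 at 0.098, Nlrp4f at 0.025 and Zar1 at 0.16. Leaving out 1 array in turn, the difference ran from -0.34 to 0.027 for Ooep, -0.41 to 0.036 for Nlrp14 and -0.34 to 0.15 for Zar1, and the median from -0.45 to -0.037. The cause of these turns was not tested. The slide block rests on 1 wild-type array. Over all probes, the 1 call became 0 with no filter, slide as a block, the shared slide alone or the replicate block, 6 with array weights, 14 with scaling to the oocyte genes, and 0 to 19 with 1 array left out. The replicate numbers follow the order of the samples and not the numbers in their titles, and the labels state no pairing. Deviations of same-numbered arrays correlated at -0.33, 0.30 and -0.027. With the replicate block the median of the 10 genes was again -0.22. A balanced block cannot change that median, so it does not bear on pairing.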

Other observations

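The innate immune relatives of the oocyte Nlrp genes did not share the array order of the maternal-effect genes. Of 12 such genes with a probe, 8 passed the filter, 0 were called, and 0 of 8 had knockout replicate 2 and wild type replicates 1 and 2 above the other arrays. Nlrp6, a sensor best known from the gut, had a log2 signal of -5.90, -5.96 and -5.97 in the knockouts, against -5.34, -5.59 and -5.00 in the wild types. Its difference was -0.63. It was well above background on 2 of 3 knockout and 3 of 3 wild-type arrays, and so passed the filter only through the wild types, where it was higher, which favours a lower knockout level; the difference is given with no test. Nlrc5, which activates MHC class I genes, had -1.94, -2.09 and -1.94 in the knockouts, against -2.62, -2.71 and -1.99 in the wild types, a difference of 0.45 ± 0.20 (SE). Its wild type replicate 3, on the slide of the knockouts, lay among them.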
